A study of Macaca mulatta with 27 samples.

Results

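Cytosolic ribosomal protein genes were followed in RNA-seq libraries of rhesus PSCs, before and after reprogramming with protocols meant to reach naive pluripotency. They were taken by symbol, namely all symbols that start with RPL, RPS, or RPLP followed by a number, with or without an ending A, X, L, AL, or L1, and RPSA. The rule gave 83 of the 17967 gene symbols of the count tables. They include 45 of the 46 symbols of the standard large subunit proteins and 29 of the 31 of the small subunit. RPL36A, RPS3A, and RPS6 were not analysed here. The 9 remaining symbols, among them RPL3L, RPL7L1, RPL10L, RPL22L1, RPL26L1, RPL36AL, RPL39L, and RPS27L, are paralogs or near copies of other ribosomal protein genes. In the RefSeq gene table of assembly T2T-MMU8v2.0, 81 of the 83 symbols were matched, all 81 as protein-coding genes, and RPL21 was among the unmatched.

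The cytosolic ribosome decodes mRNA in its small subunit and joins amino acids in its large subunit, and the proteins of both are assembled on rRNA in the nucleolus. Their mRNAs start with a terminal oligopyrimidine (TOP) tract, which ties their translation to mTOR, and the proteins are made in nearly equal numbers. Some paralogs are used in few tissues, such as RPL3L in striated muscle and RPL10L and RPL39L in testis. Loss of a single copy of several of these genes causes Diamond-Blackfan anemia, in which free ribosomal proteins of the 5S particle stabilize p53.

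All libraries came from LyonES-tGFP-(S3), a single clone of the LyonES rhesus line that carries tauGFP under the CAG promoter and a lentiviral STAT3-ERT2, a STAT3 that tamoxifen turns on. The groups are 6 libraries of primed cells and 3 of each of 7 protocols, all labelled as naive cells, namely LCDM (EPS), E-NHSM, t2iLGöY, 4i/L/b, NHSM-v, TL2i, and TL-CDK8i. TL2i cells received tamoxifen, LIF, and inhibitors of MEK and GSK3β, and TL-CDK8i cells received tamoxifen, LIF, and CNIO-47799, an inhibitor of CDK8 and CDK19, in place of both inhibitors. The other 5 protocols were used without tamoxifen. Primed cells were passaged mechanically as clumps and reprogrammed cells as single cells, so the passaging and the media cannot be told apart in any comparison with primed cells. No source says whether replicates are separate cultures. The p-values set the differences between groups against the spread between these libraries, and may not extend to other cultures.

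Total counts ranged from 7111886 to 20760914 per library, and 3 counts, the floor used here, correspond to 0.141 to 0.429 CPM (CPM, counts scaled to a common library size after TMM normalization). All 36 pairs of replicate libraries differed by more than sampling noise. The labelled cell type was checked against 10 pluripotency markers. Their summed level was 7731 to 9028 CPM in primed, 9371 to 9592 CPM in E-NHSM, 3153 to 4090 CPM in TL-CDK8i, and 1276 to 1567 CPM in TL2i libraries. It was 647 to 681 CPM in LCDM (EPS) and 255 to 312 CPM in NHSM-v, 4i/L/b, and t2iLGöY libraries, and NANOG was at or under the floor in all libraries of these 4 protocols. The sum of 8 fibroblast markers was 1138 to 2407 CPM in primed, 407 to 451 CPM in E-NHSM, 777 to 1006 CPM in LCDM (EPS), and 3420 to 4030 CPM in t2iLGöY libraries. It reached 7864 to 8410 CPM in NHSM-v, 11628 to 15106 CPM in 4i/L/b, 2958 to 5750 CPM in TL2i, and 8710 to 11282 CPM in TL-CDK8i libraries. DCN and LUM, markers of fibroblasts, were at or under the floor in all primed, E-NHSM, and t2iLGöY libraries. The sum of 8 neural markers was 2336 to 2651 CPM in primed, 6322 to 6560 CPM in LCDM (EPS), and 3841 to 4182 CPM in t2iLGöY libraries. It was 2994 to 3045 CPM in NHSM-v, 3073 to 3247 CPM in 4i/L/b, and 2812 to 2967 CPM in TL2i libraries. The lowest sums were 1312 to 1463 CPM in E-NHSM and 2067 to 2166 CPM in TL-CDK8i libraries. In bulk RNA, fewer cells of a type and less RNA per cell cannot be told apart, and the part of these markers in the results below was not tested.

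Taken as a whole, the ribosomal protein mRNAs held a larger share of the library in E-NHSM cells than in primed cells and a smaller share in the other 6 protocols. The summed level of the 83 genes was 25374 to 27713 CPM in the 6 primed libraries, with a mean of 26569 ± 955 (SD). It was 40506 ± 722 CPM in E-NHSM cells (n = 3), 1.52 times the primed mean, and 13372 ± 450 CPM in NHSM-v cells (n = 3), 0.503 times the primed mean. The remaining protocols lay in between. The mean was 17768 ± 798 CPM in LCDM (EPS), 18528 ± 366 CPM in t2iLGöY, and 19617 ± 1162 CPM in 4i/L/b cells (n = 3 each). It was 21104 ± 2506 CPM in TL2i and 21860 ± 1849 CPM in TL-CDK8i cells (n = 3 each), whose ranges overlap. No library of any protocol fell within the primed range. As a share of raw counts, the 83 genes made up 2.44% to 2.73% in primed, 4.05% to 4.21% in E-NHSM, and 1.21% to 1.29% in NHSM-v libraries. The share was 1.78% to 1.92% in LCDM (EPS), 1.97% to 2.04% in t2iLGöY, and 1.80% to 2.02% in 4i/L/b libraries. It was 1.94% to 2.21% in TL-CDK8i and 1.92% to 2.43% in TL2i libraries, the highest of which lay just under the lowest primed library.

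**Figure D1:**
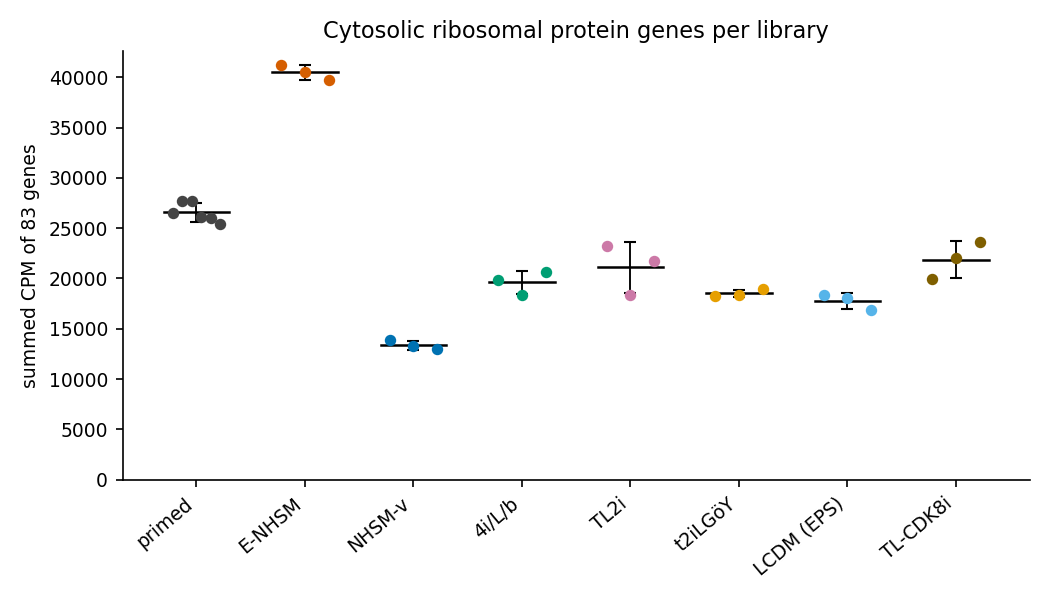
Summed level of the 83 cytosolic ribosomal protein genes (CPM, linear axis from 0) in each of the 27 libraries, by group, with points for libraries, a horizontal line for the group mean, and error bars of 1 SD. The E-NHSM libraries sit between 39766 and 41209 CPM, above all primed libraries, and the libraries of the other 6 protocols all sit below them, with NHSM-v lowest.

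Gene by gene, edgeR's quasi-likelihood test with Benjamini-Hochberg adjustment over all genes (threshold 0.05) gave the same division. In E-NHSM cells, 72 of the 81 genes tested were higher than in primed cells and 0 were lower, against 11.1% of all genes tested that were higher and 15.1% that were lower. The 72 include RPL3L, which had 0 counts in all primed libraries and entered the test only through E-NHSM, and 71 of 80 were higher without it. By unadjusted p under 0.05, 75 of the 81 passed, against 36.8% of all genes. The median log2 fold change of the 81 genes was 0.58, a 1.49-fold rise, while the median of all genes tested was 0.02. The quartiles of the 81 were 0.46 and 0.68.

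In NHSM-v cells, 76 of 80 genes were lower and 0 higher, against 30.6% of all genes lower and 28% higher. Their median log2 fold change was -1.08, or 0.475 of the primed level, with quartiles of -1.48 and -0.75. LCDM (EPS) cells had 72 of 80 lower and 0 higher, against 28.9% and 28.2% of all genes, and a median of -0.53. The counts for 4i/L/b cells were 66 lower and 0 higher of 80, against 29% and 26.6% of all genes, with a median of -0.47. For t2iLGöY cells they were 65 lower and 0 higher of 80, against 27.2% and 27.1%, with a median of -0.51. All these medians lay below those of all genes tested, which were between -0.02 and 0.03 in these 4 comparisons. The lower quartile of all genes was -0.78 for NHSM-v, -0.68 for LCDM (EPS), -0.62 for 4i/L/b, and -0.66 for t2iLGöY cells. Only the NHSM-v median of the ribosomal protein genes lay below it, and the difference from all genes was not tested.

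The protocols that activate STAT3 with tamoxifen gave smaller counts and some rises. In TL2i cells, 53 of 80 genes were lower and 2 were higher than in primed cells, against 25.2% and 25.6% of all genes, and the median log2 fold change was -0.34. In TL-CDK8i cells, 51 were lower and 5 were higher, against 23.8% and 22.3%, and the median was -0.42. Leaving out TL-CDK8i replicate 1 raised the number of higher genes from 5 to 8. All 7 comparisons share the 6 primed libraries and are therefore not independent of each other.

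**Figure D2:**
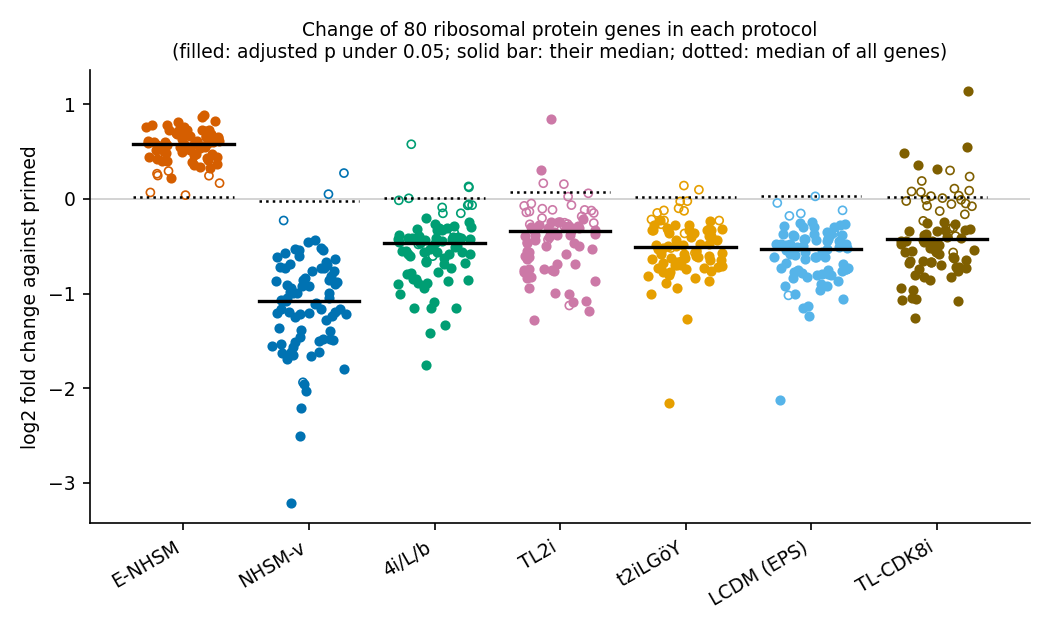
Log2 fold change of 80 cytosolic ribosomal protein genes against primed cells in each protocol, with filled points for an adjusted p under 0.05 in edgeR's test and open points otherwise, a solid bar for the median of the 80, and a dotted bar for the median of all genes tested. All E-NHSM points lie above 0 and most points of the other protocols lie below 0, down to -3.21 for RPL22L1 in NHSM-v; RPL3L, at 0 counts in all primed libraries, is left out.

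The change in NHSM-v and E-NHSM cells was compared directly, without primed libraries, in a comparison added after the data had been seen. E-NHSM exceeded NHSM-v in 79 of 81 genes and was lower in 0, against 34.8% and 33.4% of all genes tested, with a median log2 fold change of 1.61. Without RPL3L, which entered this test through E-NHSM alone, 78 of 80 were higher. The 2 genes that did not pass were RPL39L (1.96, adjusted p = 0.077) and RPS27L (-0.02, adjusted p = 0.94). Leaving out genes below a mean log2 CPM of 3, RPL22L1, RPL39, and RPL27A had the 3 largest differences, of 3.48, 2.94, and 2.51.

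The primed columns carry the letters J and K, which the labels do not explain. Within primed cells, 0 of the 80 genes differed between K and J libraries in either direction by edgeR, against 2.03% of all genes higher and 1.7% lower, and the median was -0.09. At an unadjusted p under 0.05, 12 of the 80 differed, against 17.1% of all genes, and DESeq2 called 3 lower, against 2.26% of all genes it tested. Against the J libraries alone, the medians of the 7 protocols ran from -1.08 in NHSM-v to 0.55 in E-NHSM cells, and against the K libraries alone from -1.04 to 0.62.

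Among large subunit genes, leaving out those below a mean log2 CPM of 3, the genes that rose most in E-NHSM cells were RPL37 and RPLP0. RPLP0 encodes the base of the stalk, the flexible arm of the large subunit that recruits translation factors and on which RPLP1 and RPLP2 sit. RPLP0 was at 835 to 1006 CPM (median 872) in primed libraries and at 1708, 1632, and 1618 CPM in E-NHSM libraries (log2 fold change 0.87, SE 0.06, adjusted p = 1.2e-08), with no overlap. RPL37, a small zinc-binding protein of the large subunit, was at 88.2 to 195 CPM (median 169) in primed and at 308, 289.6, and 239 CPM in E-NHSM libraries (log2 fold change 0.89, SE 0.20, adjusted p = 0.0025). Its primed levels were uneven, with J3 and K3 at 94.4 and 88.2 CPM and the other 4 at 162 CPM or more.

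The 9 genes not called higher in E-NHSM cells were RPL22L1, RPL26L1, RPL29, RPL34, RPL36AL, RPL39L, RPL41, RPL7L1, and RPS27L, of which 5 are paralogs of another member and RPL36AL is a paralog of RPL36A. RPL29 and RPL34 were singled out after their values had been seen. All 9 had positive log2 fold changes, between 0.04 and 0.51. RPL41, a protein of very few residues, was at 73.5, 80.9, and 81.3 CPM in E-NHSM libraries and at 67.8 to 88.5 CPM (median 73.3) in primed libraries, with overlapping ranges (log2 fold change 0.07, SE 0.12, adjusted p = 0.72). By subunit, 42 of 45 large subunit genes (median 0.57) and 29 of 29 small subunit genes (median 0.62) were called higher, against 11.1% of all genes, and the difference between the subunits was not tested.

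In TL-CDK8i cells, RPLP0 was called higher and the other stalk genes, RPLP1 and RPLP2, lower. RPLP0 fell in NHSM-v, 4i/L/b, t2iLGöY, and LCDM (EPS) cells, with log2 fold changes of -0.91, -0.39, -0.69, and -1.06. In LCDM (EPS) libraries its level was 440.3, 453, and 409 CPM, under all primed libraries (adjusted p = 2.9e-08). In TL2i cells it was at 936, 716, and 844 CPM, with 2 of the 3 libraries inside the primed range (log2 fold change -0.12, SE 0.09, adjusted p = 0.27). In TL-CDK8i cells it rose, to 1019.8, 1249, and 1229 CPM (log2 fold change 0.32, SE 0.08, adjusted p = 0.006), and all 3 libraries exceeded the highest primed one.

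RPLP1 and RPLP2, the acidic stalk proteins, fell in the same TL-CDK8i cells. RPLP1 went from 550.2 to 709.9 CPM (median 633) in primed to 318, 364, and 381 CPM in TL-CDK8i libraries (log2 fold change -0.86, SE 0.10, adjusted p = 5.4e-06). RPLP2 had a log2 fold change of -0.82 (SE 0.10, adjusted p = 1.4e-05) there. Both also passed the test as lower in the 5 protocols besides E-NHSM and TL-CDK8i, with values from -1.56 to -0.65 for RPLP1 and from -1.51 to -0.55 for RPLP2.

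RPL5 and RPL11 bind 5S rRNA and, when free of ribosomes, the p53 regulator MDM2. Both were higher in E-NHSM cells, at 0.35 (SE 0.06, adjusted p = 0.0004) and 0.42 (SE 0.07, adjusted p = 0.00017). Both were lower in each of the other 6 protocols, by log2 fold changes from -1.11 in NHSM-v to -0.24 in TL2i cells for RPL5 and from -1.05 in NHSM-v to -0.56 in LCDM (EPS) cells for RPL11. The fall of RPL5 in TL2i cells (adjusted p = 0.025) no longer passed the test with upper-quartile scaling, library totals, or at least 10 counts in every library, against the K libraries alone, or without TL2i replicate 2 or 3, with adjusted p from 0.051 to 0.25. In NHSM-v libraries RPL5 was at 319, 318, and 289.6 CPM against 594 to 715 CPM (median 648) in primed libraries, with no overlap.

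The 3 genes that fell most in NHSM-v cells, RPL22L1, RPL39, and RPL21, belong to the large subunit. RPL22L1, a paralog of the RNA-binding protein RPL22, fell in 6 protocols. It was at 74.8 to 120.3 CPM (median 93.5) in primed libraries. In NHSM-v libraries it was at 6.88, 10.7, and 13.3 CPM (log2 fold change -3.21, SE 0.22, adjusted p = 9.8e-09). The corresponding values were 21.1, 18.8, and 22.5 CPM in t2iLGöY (log2 fold change -2.15, SE 0.17, adjusted p = 5.9e-08) and 19.7, 22.1, and 23.2 CPM in LCDM (EPS) libraries (log2 fold change -2.12, SE 0.16, adjusted p = 7.4e-08). The falls in 4i/L/b, TL2i, and TL-CDK8i cells were smaller, with log2 fold changes of -1.76, -1.28, and -1.08, and none of their libraries overlapped with the primed ones. In E-NHSM cells, at 129, 107, and 113 CPM, the gene overlapped with primed cells and did not pass the test (log2 fold change 0.29, SE 0.14, adjusted p = 0.12).

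Its parent RPL22 changed less. It fell to 181, 142, and 159.7 CPM in NHSM-v from 415 to 524 CPM (median 466) in primed libraries (log2 fold change -1.56, SE 0.10, adjusted p = 3.9e-09), and by between -0.70 and -0.33 in the other 5 of the 6 protocols. Counts of RPL22L1 were 20.4% ± 3.87 of those of RPL22 in primed libraries (SD, n = 6) and 17.1% ± 2.10 in E-NHSM libraries (n = 3). The share was 5.76% ± 0.710 in t2iLGöY, 6.50% ± 0.704 in LCDM (EPS), 6.56% ± 2.42 in NHSM-v, 9.45% ± 0.602 in 4i/L/b, and 11.5% ± 0.644 in TL2i libraries (n = 3 each). In TL-CDK8i libraries it was 15.5% ± 0.683 (n = 3), overlapping with the lowest primed library at 15.6%.

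RPL39, which lines the exit tunnel of the nascent chain, was at 64.4 to 97.3 CPM (median 77.0) in primed and at 16.2, 12.2, and 14.3 CPM in NHSM-v libraries (log2 fold change -2.51, SE 0.18, adjusted p = 1.7e-08). In the 5 other protocols in which it fell the change was smaller, with log2 fold changes from -0.73 to -0.44. In 4i/L/b libraries, at 57.7, 53.4, and 71.3 CPM, it overlapped with primed libraries, and the call (adjusted p = 0.024) was lost with DESeq2, against the J libraries alone, and without primed replicate K1 or 4i/L/b replicate 1 or 2 (adjusted p from 0.059 to 0.12). The call in TL2i cells was lost without TL2i replicate 3 (adjusted p = 0.063). In t2iLGöY cells it was lost with library totals, against the J libraries alone, and without t2iLGöY replicate 3 (adjusted p from 0.051 to 0.089).

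RPL21 was at 283 to 354 CPM (median 314) in primed and at 71.6, 68.9, and 68.0 CPM in NHSM-v libraries (log2 fold change -2.20, SE 0.09, adjusted p = 5.0e-11). It was also the gene that fell most in TL-CDK8i cells, to 124, 137, and 148 CPM (log2 fold change -1.26, SE 0.09, adjusted p = 1.2e-07). RPL27A fell in all 6 protocols outside E-NHSM, most in TL2i (-1.19), 4i/L/b (-1.42), and NHSM-v cells (-1.96). In TL2i libraries it was at 332, 271, and 306 CPM against 629 to 739.5 CPM (median 690.1) in primed libraries, with no overlap. RPL41 fell by log2 fold changes of -1.16 in LCDM (EPS) and -1.01 in t2iLGöY cells, where it was among the 3 genes that fell most, and by -2.03 in NHSM-v cells.

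For 67 of the 80 genes, NHSM-v had the lowest log2 fold change of the 6 protocols other than E-NHSM, LCDM (EPS) had it for 7, TL-CDK8i for 4, and t2iLGöY for 2. The 4 genes not called lower in NHSM-v cells were RPL15, RPL39L, RPS15, and RPS27L, of which RPL15 and RPS15 were singled out after their values had been seen. RPL39L had a log2 fold change of -1.94 there, at 1.24, 0, and 1.23 CPM, and did not pass the test at these low counts. RPS15, a small subunit protein near the decoding site, was at 199, 204, and 193 CPM in NHSM-v and at 165 to 214 CPM (median 186) in primed libraries (log2 fold change 0.05, SE 0.09, adjusted p = 0.67). RPL15 was at 206, 154, and 168 CPM in NHSM-v and at 177 to 230.5 CPM (median 196) in primed libraries, with overlapping ranges (log2 fold change -0.23, SE 0.11, adjusted p = 0.091).

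**Figure D3:**
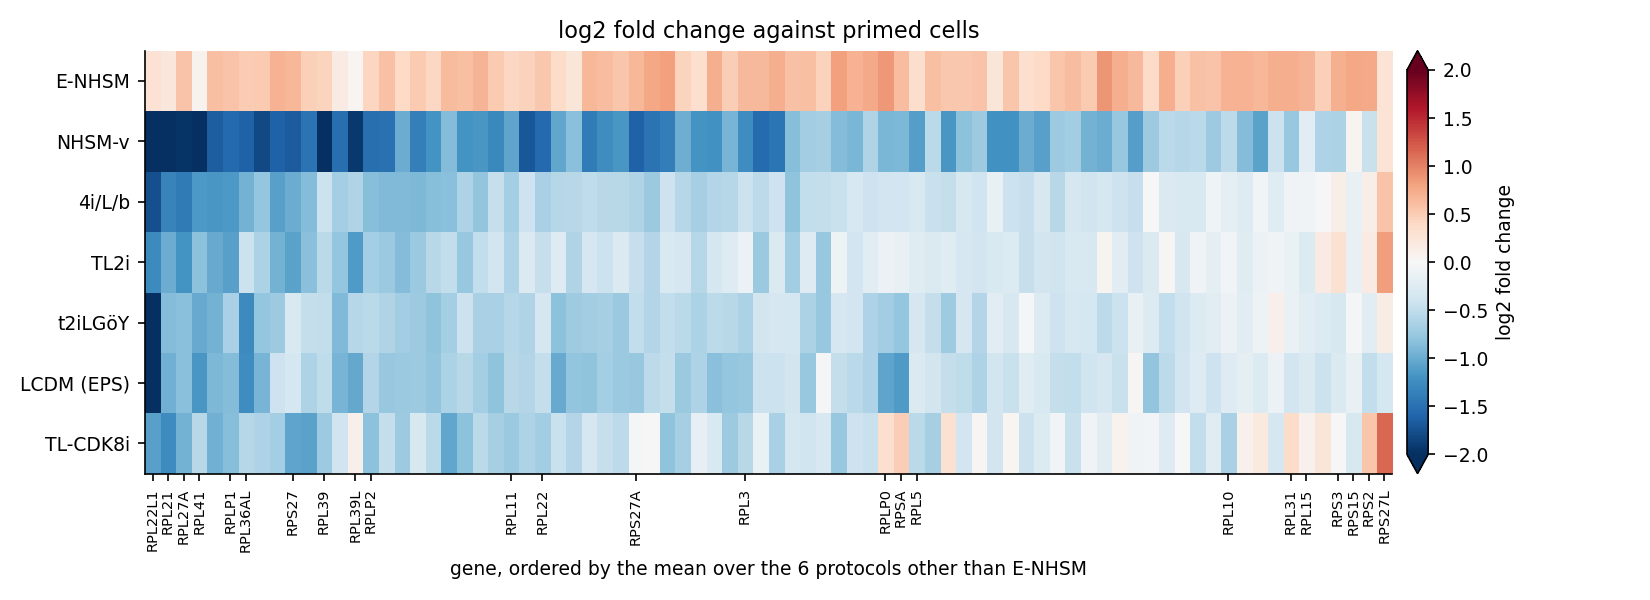
Log2 fold change against primed cells of 80 cytosolic ribosomal protein genes (columns, ordered by their mean over the 6 protocols other than E-NHSM, with some named) in 7 protocols (rows), with red for higher and blue for lower and colours that saturate at 2 in either direction. The E-NHSM row is red or near 0 throughout, the NHSM-v row is darkest blue at left from RPL22L1 to RPL41 and at RPL39, and RPLP0, RPSA, RPS2, and RPS27L are red in the TL-CDK8i row.

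Of the small subunit genes, RPSA and RPS2 were called higher in TL-CDK8i cells, RPS3 in TL2i cells, and RPS27L in both. Among the 29 standard small subunit genes, 9 were not called in TL-CDK8i and 10 in TL2i cells. RPSA, a small subunit protein also described as a laminin receptor, was at 518 to 646 CPM (median 551) in primed libraries and rose to 733, 827, and 898 CPM in TL-CDK8i libraries (log2 fold change 0.49, SE 0.08, adjusted p = 0.00026). All 3 TL-CDK8i libraries were above all primed libraries. In LCDM (EPS) libraries it was at 263, 263, and 243 CPM (log2 fold change -1.13, SE 0.08, adjusted p = 2.9e-08), and in t2iLGöY libraries at 319, 312, and 337 CPM (log2 fold change -0.78, SE 0.08, adjusted p = 1.3e-06). Neither overlapped with primed libraries, and both lay far below the TL-CDK8i libraries.

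RPS2, a protein at the mRNA entry of the small subunit, was at 579 to 795 CPM (median 623) in primed and at 872, 1011, and 1068 CPM in TL-CDK8i libraries (log2 fold change 0.55, SE 0.10, adjusted p = 0.00041). In TL2i libraries, at 796, 586, and 785 CPM, it overlapped with primed ones (log2 fold change 0.16, SE 0.11, adjusted p = 0.27). RPS3, its neighbour at the mRNA entry, rose in TL2i cells to 851, 680.4, and 818 CPM from 588 to 669 CPM (median 629.9) (log2 fold change 0.31, SE 0.08, adjusted p = 0.0052), all above the primed range. In TL-CDK8i cells RPS3 was at 611, 639, and 697 CPM and did not pass the test (log2 fold change -0.01, SE 0.07, adjusted p = 0.93). RPL31, of the large subunit, was also called higher in TL-CDK8i cells (log2 fold change 0.36, SE 0.12, adjusted p = 0.022). It was singled out after its values had been seen, and its call was not examined under the alternatives.

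RPS27L, a paralog of RPS27 and a known p53 target, had the largest rise in both tamoxifen protocols. It was at 6.86 to 19.8 CPM (median 10.9) in primed libraries, 24.9, 27.3, and 30.5 CPM in TL-CDK8i libraries (log2 fold change 1.14, SE 0.30, adjusted p = 0.0059), and 24.8, 19.5, and 20.6 CPM in TL2i libraries (log2 fold change 0.84, SE 0.31, adjusted p = 0.035). The primed levels divided by column letter, with 6.86 to 9.06 CPM in the J and 12.7 to 19.8 CPM in the K libraries (log2 fold change 1.02, SE 0.34, adjusted p = 0.11). Against the K libraries alone, the log2 fold change in TL2i cells was 0.42 (adjusted p = 0.1), and the TL2i call was also lost without primed replicate J1, J2, or K2 or without any of the 3 TL2i replicates. In 4i/L/b cells RPS27L did not pass the test against all primed libraries (log2 fold change 0.58, SE 0.32, adjusted p = 0.14) and passed it against the J libraries alone.

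RPS27, the parent, is a zinc-finger protein of the small subunit, and it moved in the opposite direction in the tamoxifen protocols. It was at 236 to 293 CPM (median 269) in primed libraries, 129, 134, and 138 CPM in TL-CDK8i libraries (log2 fold change -1.06, SE 0.09, adjusted p = 6.4e-07), and 139.9, 115, and 128 CPM in TL2i libraries (log2 fold change -1.07, SE 0.10, adjusted p = 8.6e-07). RPS27L counts were 4.52% ± 1.95 of RPS27 counts in primed (SD, n = 6) and 3.41% ± 0.240 in E-NHSM libraries (n = 3). The share was 20.6% ± 1.43 in TL-CDK8i, 17.3% ± 1.86 in NHSM-v, 16.9% ± 0.810 in TL2i, and 13.4% ± 0.439 in 4i/L/b libraries (n = 3 each), all outside the primed range of 2.49% to 6.81%. In t2iLGöY and LCDM (EPS) libraries it was 6.07% ± 1.84 and 4.44% ± 0.896 (n = 3 each), which overlap with primed libraries.

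**Figure D4:**
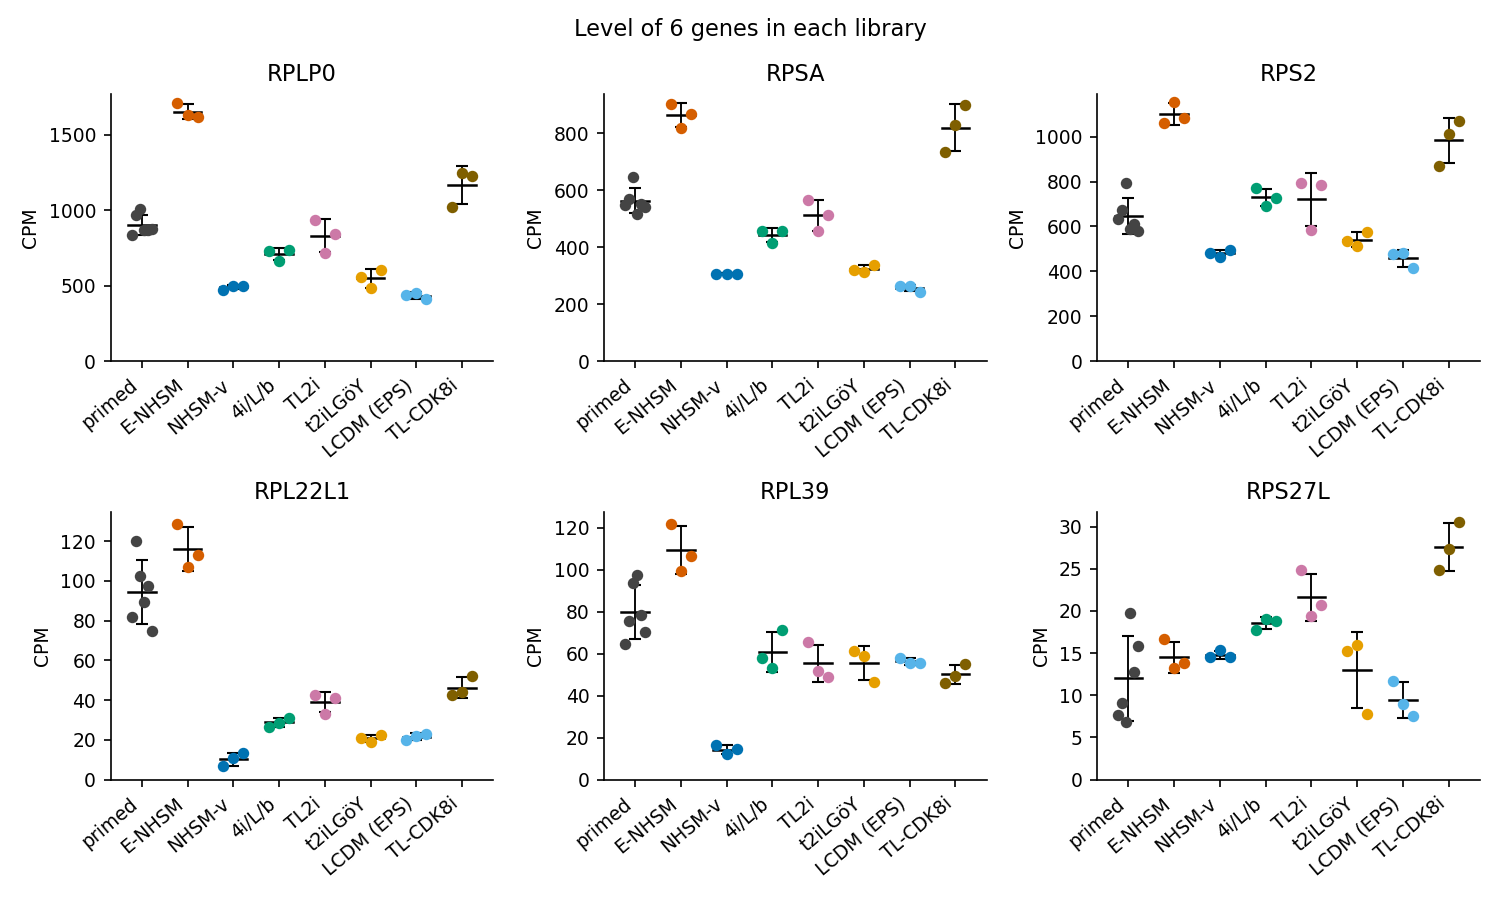
Level (CPM, linear axes from 0) of RPLP0, RPSA, RPS2, RPL22L1, RPL39, and RPS27L in each of the 27 libraries by group, with a line for the mean and error bars of 1 SD. TL-CDK8i libraries lie above all primed libraries for RPLP0, RPSA, RPS2, and RPS27L and below them for RPL22L1 and RPL39, and NHSM-v libraries are the lowest for RPL22L1 and RPL39.

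RPS27A, a small subunit protein made as a fusion with ubiquitin, rose in E-NHSM cells (log2 fold change 0.66, SE 0.08, adjusted p = 4.0e-06). It fell in NHSM-v libraries to 96.6, 89.8, and 89.6 CPM from 236 to 292 CPM (median 286) in primed ones (log2 fold change -1.62, SE 0.09, adjusted p = 1.2e-09), and by between -0.75 and -0.46 in t2iLGöY, LCDM (EPS), 4i/L/b, and TL2i cells. It was not called in TL-CDK8i cells, at 253, 284, and 317 CPM (log2 fold change -0.02, SE 0.09, adjusted p = 0.86).

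The remaining paralogs differed in level, with RPL7L1 at 44.1 to 61.5 CPM and RPL26L1 at 17.9 to 28.7 CPM in primed libraries. RPL36AL was among the genes that fell most in t2iLGöY and LCDM (EPS) cells, to 4.16, 3.60, and 7.80 CPM and 5.01, 4.71, and 6.55 CPM from 9.75 to 16.3 CPM (median 13.0) in primed libraries, with log2 fold changes of -1.27 (SE 0.37, adjusted p = 0.0086) and -1.23 (SE 0.30, adjusted p = 0.003). RPL36AL was called lower in 4 of the 6 protocols other than E-NHSM, and its lowest value was in NHSM-v cells (log2 fold change -1.62). RPL7L1, a protein of early large subunit assembly, fell in 6 protocols, by -0.84 to -0.56, and its parent RPL7 by -1.28 to -0.38. The RPL7L1 calls in TL2i and TL-CDK8i cells were lost against the J libraries alone, and that in TL-CDK8i cells also without TL-CDK8i replicate 1 (adjusted p from 0.052 to 0.069). RPL26L1 passed as lower in NHSM-v (-0.67), TL2i (-0.76), and t2iLGöY cells (-0.77), where its parent RPL26 had -1.21, -0.27, and -0.32. The RPL26L1 calls were lost without NHSM-v replicate 1 or 3 or primed replicate K2 (adjusted p from 0.053 to 0.14), without TL2i replicate 2 (adjusted p = 0.057), and without t2iLGöY replicate 1 or 3 (adjusted p = 0.13 and 0.053). Against the J libraries alone RPL26L1 did not pass in NHSM-v or t2iLGöY cells, nor in t2iLGöY cells against the K libraries alone or with library totals. The RPL26 call in TL2i cells (adjusted p = 0.034) was lost under 7 alternatives, with adjusted p from 0.055 to 0.23, and that in t2iLGöY cells with library totals.

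RPL39L was at 1.11 to 6.71 CPM (median 2.57) in primed libraries and passed in none of the 7 comparisons with primed cells. RPL10, the parent of RPL10L and a late-joining protein of the large subunit, rose in E-NHSM cells (log2 fold change 0.70, SE 0.07, adjusted p = 2.9e-07) and had its largest fall in TL-CDK8i cells (log2 fold change -0.65, SE 0.08, adjusted p = 1.4e-05). RPL10L itself held between 0 and 8 counts per library and was not tested.

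RPL3L was detected at low counts. It had 0 counts in all 6 primed libraries and 35, 22, and 18 counts in the 3 E-NHSM libraries, a mean of 1.28 CPM. Against a floor of 3 counts per primed library, this is at least 4.23-fold higher. Since the gene entered the test only through the group in which it was high, no p is given. In the libraries of the other 6 protocols RPL3L held between 0 and 4 counts. Its parent RPL3, at the peptidyl transferase center, rose from 969 to 1117 CPM (median 1034) to 1695, 1541, and 1704 CPM in E-NHSM libraries (log2 fold change 0.65, SE 0.06, adjusted p = 2.0e-07), so that RPL3L counts were 0.0778% of RPL3 counts there.

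TL-CDK8i and TL2i cells were compared directly, since both activate STAT3 and differ in their inhibitors. Of 80 genes, 26 were higher and 16 lower in TL-CDK8i cells, against 31.5% and 33.3% of all genes tested, and the median log2 fold change was 0.03. When libraries were scaled by their totals, the split was 12 higher and 26 lower, so that the direction of the list as a whole depends on the scaling. RPSA (log2 fold change 0.65, SE 0.10, adjusted p = 9.7e-05) and RPS24, a small subunit protein (log2 fold change 0.61, SE 0.11, adjusted p = 0.00021), were higher in TL-CDK8i cells, as were RPLP0 (0.45) and RPS2 (0.41). RPS24 was at 401, 468, and 529 CPM in TL-CDK8i and 329.9, 292, and 274 CPM in TL2i libraries, with no overlap. RPL38, a small protein of the large subunit, was at 39.3, 52.9, and 57.6 CPM in TL-CDK8i and 33.6, 28.7, and 32.7 CPM in TL2i libraries (log2 fold change 0.62, SE 0.13, adjusted p = 0.001).

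Of the genes called, 3 of the large subunit were the lowest in TL-CDK8i relative to TL2i cells. RPL13A was at 549, 572, and 594 CPM in TL-CDK8i and 960.4, 752, and 907 CPM in TL2i libraries (log2 fold change -0.64, SE 0.10, adjusted p = 8.7e-05). RPL10 (log2 fold change -0.58, SE 0.10, adjusted p = 0.00017) and RPL28 (log2 fold change -0.53, SE 0.11, adjusted p = 0.00096) followed. RPL39L was higher in TL-CDK8i cells, at 1.72, 3.45, and 5.32 CPM against 1.57, 1.81, and 0.919 CPM (log2 fold change 1.25, SE 0.45, adjusted p = 0.024), and this call was lost with all 8 groups in 1 fit (adjusted p = 0.22), with the replicate block, and without 3 single libraries, TL2i replicate 3 and TL-CDK8i replicates 2 and 3. The TL2i libraries were themselves spread, with summed levels of 18337 CPM in replicate 2 and up to 23220 CPM, and without replicate 2 the median log2 fold change was -0.04.

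Other genes of the pathway were read from the same tests. FAU, which encodes a ribosomal protein made as a fusion and lies outside the symbol rule, rose in E-NHSM cells, by a log2 fold change of 0.50 (SE 0.09, adjusted p = 0.00045). It fell in the other 6 protocols, by -1.02 in NHSM-v to -0.44 in TL-CDK8i cells.

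Of 32 translation factors and other TOP genes tested, 21 were higher and 3 lower in E-NHSM cells (median 0.32), against 11.1% and 15.1% of all genes, and 0 were higher and 27 lower in NHSM-v cells (median -0.66), against 28% and 30.6%. Between 21 and 27 were lower in each of the other 5 protocols, against 23.8% to 29% of all genes, and 1 or 2 were higher, against 22.3% to 28.2%. EEF1A1, which carries aminoacyl-tRNA to the ribosome, rose in E-NHSM (0.63), 4i/L/b (0.33), and TL2i cells (0.22) and fell in LCDM (EPS) cells (-0.27). EEF1B2, its exchange factor, rose in E-NHSM cells (0.19) and fell in the other 6 protocols, from -1.91 in NHSM-v to -0.90 in TL2i cells. EIF3B, a subunit of the initiation factor that binds the small subunit, fell in all 7, least in E-NHSM cells (-0.29) and most in 4i/L/b cells (-1.37). EIF4EBP1, the mTOR-controlled repressor of EIF4E, rose in E-NHSM (log2 fold change 1.35, SE 0.19, adjusted p = 4.1e-05) and TL-CDK8i cells (log2 fold change 0.58, SE 0.21, adjusted p = 0.033).

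Of 59 ribosome biogenesis genes tested, 4 were higher and 16 lower in E-NHSM cells (median -0.17), against 11.1% and 15.1% of all genes. In the other 6 protocols between 43 and 56 of the 59 were lower, against 23.8% to 30.6% of all genes, and at most 2 higher, against 22.3% to 28.2%, with medians from -1.05 in 4i/L/b and t2iLGöY to -0.59 in TL-CDK8i cells. NOP16, a nucleolar protein of large subunit assembly, was at 43.8 ± 5.76 CPM in primed (n = 6) and 8.04 ± 6.38 CPM in t2iLGöY libraries (n = 3), with log2 fold change -2.42, SE 0.40, adjusted p = 0.00011. RRS1, which helps load the 5S particle, fell most in TL2i cells (log2 fold change -2.12, SE 0.15, adjusted p = 5.5e-08) and least in TL-CDK8i cells (-0.59) among the 6. POLR1E, a subunit of RNA polymerase I, rose in E-NHSM cells (0.42) and fell in NHSM-v (-0.38), LCDM (EPS) (-0.35), and TL-CDK8i cells (-0.51). RRN3, its initiation factor, fell in NHSM-v (-0.46) and rose in LCDM (EPS) cells (0.40).

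Mitochondrial ribosomal proteins belong to a separate ribosome that translates mitochondrial mRNA. Of 76 tested, 14 were higher and 1 lower in E-NHSM cells (median 0.21), against 11.1% and 15.1% of all genes. Between 37 and 62 were lower in the other 6 protocols, against 23.8% to 30.6% of all genes, and 1 was higher in each except TL-CDK8i, where 6 were, against 22.3% to 28.2%. MRPS2 and MRPS30 fell in all 6, most in 4i/L/b cells for MRPS2 (log2 fold change -2.20, SE 0.18, adjusted p = 2.0e-07) and in NHSM-v cells for MRPS30 (log2 fold change -1.58, SE 0.14, adjusted p = 2.3e-07). MRPL53 rose in these 6 protocols, from 0.75 in LCDM (EPS) to 1.17 in t2iLGöY cells, and MRPL41 passed in none of the 7. The differences between the lists were not tested.

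**Figure D5:**
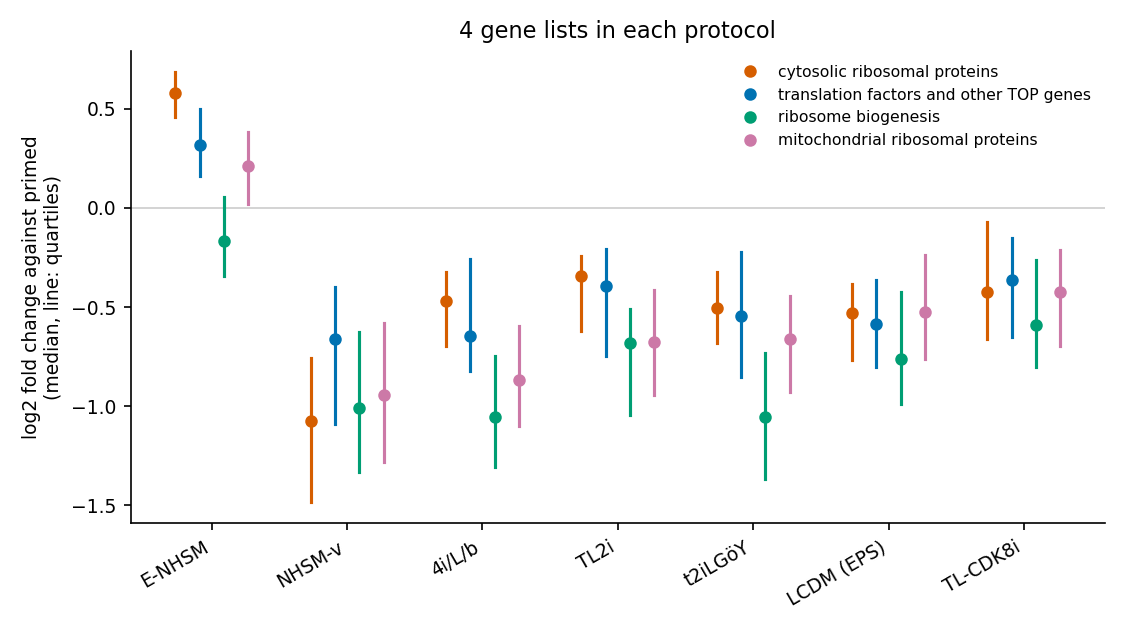
Median log2 fold change against primed cells (points) with the lower and upper quartile (lines) of the cytosolic ribosomal protein genes, translation factors and other TOP genes, ribosome biogenesis genes, and mitochondrial ribosomal proteins in each protocol. In E-NHSM the medians are 0.58, 0.32, -0.17, and 0.21, and in all other protocols the 4 medians are below 0.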

How the data were processed

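RNA was sequenced as directional mRNA libraries (single reads), and the authors deposited raw counts of reads per gene symbol, 1 column per library. Per the labels, the submitters' processing notes name bcl2fastq, cutadapt, HISAT2, and HTSeq. Versions, genome build, annotation, and the handling of reads that match several places, which affects genes with many pseudogene copies such as these, are not given in the sources used here. Column names gave each column its group. The primed columns carry letters and numbers that do not match the labelled sets, so they were used as 6 replicates without a set, and 0 columns were left over.

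TMM-normalized CPM were computed with edgeR 4.0.16 (limma 3.58.1, R 4.3.3), which also gave, on the libraries of each comparison, the quasi-likelihood test over all genes kept by filterByExpr, with Benjamini-Hochberg adjustment over all genes tested and a threshold of 0.05. Standard errors (SE) of log2 fold changes were derived from the F statistics. The procedure was tested on simulated counts. Of the 83 genes, 2 (RPL10L among them) were never tested, and RPL3L was tested only in comparisons with E-NHSM. A fold against a group at 0 was computed against a floor of 3 counts per library.

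The members, the lists, and the tests were chosen with earlier results of these data known. Genes were named by a rule that takes in each comparison the 3 largest rises and the 3 largest falls (adjusted p under 0.05, mean log2 CPM of at least 3), all paralogs with their parents, stalk and 5S genes, RPSA, RPS27A, genes that failed the filter, members called in the same direction in all 7 protocols (there were 0), and, of each other list, the 2 largest rises and the 2 largest falls on average, with FAU. Some genes that this rule names are not reported here. Members and lists are described by counts and medians. Alternatives were DESeq2 1.42.0, other scalings and filters, all 8 groups in 1 fit, J or K columns only, a replicate block, and each library left out. The comparison of E-NHSM with NHSM-v and the requirement of an absolute log2 fold change of 1 or more were added after seeing the data. No sequence table was used here.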

Additional observations from a re-analysis of the deposited data

Results flagged for a closer look

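In the 6 primed libraries, 5 of 78 values tested had 1 library set apart from the rest by a gap above 0.625 of the whole range, where chance alone gives such a gap in about 1 in 20 groups. The 5 are near that share. Primed J3, which had the lowest total counts of all libraries (7111886), held 3 of the 5. There RPL29 was at 125 CPM (next library 89.1) and RPS19 at 245 CPM (next 197), while RPS27A was lowest at 236 CPM (next 283). RPS10 was highest in J2, at 374 CPM (next 321). In J1, RPS21 was highest at 93.7 CPM (next 72.4).

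The effects of 2 pairs of protocols differed by a direct test between them. E-NHSM exceeded NHSM-v in 79 of 81 genes tested, and in 78 of 80 without RPL3L, which entered this test through E-NHSM alone. TL-CDK8i and TL2i differed in both directions, with 26 genes higher and 16 lower of 80 (edgeR's quasi-likelihood test, Benjamini-Hochberg adjustment, for both pairs). Of all genes tested, 34.8% were higher in E-NHSM than in NHSM-v cells, and 31.5% were higher and 33.3% lower in TL-CDK8i than in TL2i cells, so that the 26 are near the share of all genes. With library totals the second split was 12 higher and 26 lower. Pluripotency markers summed to 9371 to 9592 CPM in E-NHSM and 255 to 259 CPM in NHSM-v libraries, and to 3153 to 4090 CPM in TL-CDK8i and 1276 to 1567 CPM in TL2i libraries, and their part in these differences was not tested.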

How the results depend on the processing

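Apart from left-out libraries, 242 summary values kept their direction and stayed near the reported value, 47 moved, and 2 reversed. Under none of the alternatives did a median against primed cells change sign. Scaling by library totals gave medians of 0.66 for E-NHSM, -0.38 for t2iLGöY, and -0.41 for LCDM (EPS), and DESeq2 gave -0.38 for 4i/L/b. Library totals moved the median of all genes tested to 0.19 for TL2i and 0.15 for t2iLGöY and LCDM (EPS). The number of genes higher was 1 for NHSM-v with J columns, 1 for t2iLGöY with library totals, and 1 for TL2i with K columns. For 4i/L/b it was 1 with DESeq2, library totals, at least 10 counts in every library, or J columns, and 2 with all 8 groups in 1 fit or K columns. For TL-CDK8i it was 8 with DESeq2, at least 10 counts in every library, or K columns, and 9 with all 8 groups. An absolute log2 fold change of at least 1 gave the following counts, with the share of all genes that passed in brackets. E-NHSM had 1 higher (3.36%), which was RPL3L, and 0 without it. NHSM-v had 42 lower (16.8%), 4i/L/b 7 lower (12.5%), t2iLGöY 3 lower (13.8%), and LCDM (EPS) 6 lower (14.8%). TL2i had 0 higher (14.8%) and 5 lower (9.39%), and TL-CDK8i 1 higher (12.7%) and 5 lower (6.69%). TL-CDK8i against TL2i had 1 higher (14%) and 0 lower (14.1%). The causes were not tested, save that the minimum keeps fewer genes by construction.

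TL-CDK8i against TL2i depended most on the processing. The median turned to -0.0159 with upper-quartile scaling and to -0.0884 with library totals, which also moved the median of all genes to -0.16 and gave 12 higher and 26 lower. Leaving out single libraries gave medians from -0.0396 (without TL2i replicate 2) to 0.13 (without TL2i replicate 1), 15 to 31 higher (without TL-CDK8i replicate 3 and 1), and 8 to 22 lower (without TL2i replicate 3 and 2). Same-numbered libraries of both protocols did not deviate together (correlations -0.15, -0.02, and -0.01), so the numbers were not taken as pairs. With a replicate block there were 21 higher and 14 lower (median 0.04), and for E-NHSM against NHSM-v 79 and 0, where the medians were 1.70 and 1.73 with upper-quartile scaling and library totals. K against J gave 3 lower with DESeq2, 2 without a filter, and 1 with upper quartiles, library totals, or at least 10 counts. Leaving out single libraries gave 0 to 1 higher for 4i/L/b, 1 to 2 for TL2i, 4 to 8 for TL-CDK8i, and 0 to 1 lower for K against J.

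Summed levels on library totals were 25748 CPM for primed, 41402 for E-NHSM, 12517 for NHSM-v, 19997 for t2iLGöY, and 18715 for LCDM (EPS). They were 19279 CPM for 4i/L/b, 22201 for TL2i, and 20695 for TL-CDK8i. Without RPL4, the member of highest counts, they were 24804 for primed, 37915 for E-NHSM, 12568 for NHSM-v, 18379 for 4i/L/b, 17492 for t2iLGöY, and 16708 for LCDM (EPS). For named genes, 138 values under alternatives lost the call, 56 gained it, and 5146 stayed on the same side of the threshold. None of the values called in either fit changed direction, and changes of direction among values called in neither were not counted. Genes of few counts, such as RPL3L, RPL39L, and RPS27L, are the least certain at this depth.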

Other observations

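Of the members, 19 are genes mutated in Diamond-Blackfan anemia, an inherited failure of red cell production. All 19 were higher in E-NHSM than in primed cells (median log2 fold change 0.58), against 11.1% of all genes tested. In NHSM-v cells 18 were lower (median -0.95), against 30.6% of all genes, and in LCDM (EPS) cells 18 (median -0.42), against 28.9%. The numbers lower were 16 in 4i/L/b (median -0.43), 16 in t2iLGöY (median -0.36), 14 in TL2i (median -0.32), and 10 in TL-CDK8i cells (median -0.34), the last with 1 higher, against 29%, 27.2%, 25.2%, and 23.8% of all genes lower. Of all members without RPL3L, 71 of 80 were higher in E-NHSM (median 0.58) and 76 of 80 lower in NHSM-v cells (median -1.08). The difference between the 19 genes and the other members was not tested.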
